A study of Mus musculus with 4 samples.

Results

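The genes described are 8 steroid-converting enzymes, *Srd5a1*, *Srd5a2*, *Srd5a3*, *Hsd11b1*, *Hsd11b2*, *Hsd17b4*, *Hsd17b7* and *Cyp1b1*, of 32287 features in the deposited matrices of the E16.5 mouse penis. They were chosen by name, with earlier results of these data known. Single-cell mRNA was sequenced from male genitalia of 2 genotypes with 2 penises each. DTA+ embryos carried *Nr5a1cre* together with 1 floxed copy of the diphtheria toxin A allele (DTA f/+), and DTA- controls carried the same DTA f/+ allele but no Cre. Every embryo in the comparison therefore carried the toxin allele, and the genotypes differed in the Cre and in the cells it ablates. The labels call the DTA- genotype WT. The comparison asks how removal of *Nr5a1*-lineage cells changes the transcripts that remain in the penis. *Nr5a1*-Cre is also active in steroid-producing cells of the testis and adrenal gland, so an effect of the loss of *Nr5a1*-lineage cells inside the penis and an effect of altered circulating hormones cannot be told apart here. Each library came from 1 penis, and p-values measure the spread between these 4 libraries.

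The libraries held 11343 to 12580 cell barcodes and 50779551 to 73577028 UMIs (unique molecular identifiers, each standing for 1 captured mRNA molecule), and 31132 of 47040 cells passed the filters. Kept cells of DTA- replicate 1 and DTA- replicate 2 had a median of 4700 and 4077 UMIs, above the 3551 and 3560 of the DTA+ libraries, and 21.4% of the barcodes of DTA- replicate 1 lay over the upper UMI limit against 9.98 to 11.2% in the other libraries. Clustering gave 22 populations, of which 19 had at least 20 cells in every library and were compared between genotypes. Populations with enough of a cell type's markers bear its name, as marker profiles rather than proven identities, and the others bear the names of their leading genes. *Nr5a1* itself had 0 UMIs in the kept cells of both DTA- libraries and 0 and 2 in the DTA+ libraries, so its transcript gave no check of the ablation at this stage. The subdermal prepuce cluster held 252 and 838 cells in the DTA- libraries and 27 and 9 in the DTA+ libraries, while the 2 general prepuce clusters together held 100 and 17 against 825 and 951 cells. The prepuce clusters thus parted by genotype, and the smooth muscle cluster fell under 20 cells in DTA+ replicate 2 (134, 195, 32 and 13 cells), so these 3 populations were not tested alone. Pairs of libraries shared 31 to 48 cell barcodes, none with the same counts.

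Steroid-converting enzymes act inside the target cell and set which hormone reaches its receptor. The 5α-reductases turn testosterone into dihydrotestosterone (DHT), the androgen that masculinises the external genitalia, and the type 2 enzyme encoded by *Srd5a2* is the isoform whose loss in humans leaves male genitalia undervirilised. The 11β-hydroxysteroid dehydrogenases switch glucocorticoids: HSD11B1 regenerates active glucocorticoid and HSD11B2 inactivates it. 17β-hydroxysteroid dehydrogenases act at carbon 17 of androgens and estrogens, although HSD17B4 is best known as a peroxisomal enzyme of fatty acid oxidation and HSD17B7 also serves cholesterol synthesis. CYP1B1 is a cytochrome P450 that hydroxylates estrogens and retinoids and is a known target of the aryl hydrocarbon receptor (AHR).

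In GRCm38 coordinates *Srd5a2* (ENSMUSG00000038541) lay on chr17:74016955-74047916 and *Cyp1b1* (ENSMUSG00000024087) on chr17:79701537-79715061, both on the minus strand. The promoter sequences are those of *Srd5a2* and *Cyp1b1*, the genes whose transcripts differed most between the genotypes. They are RefSeq sequence of GRCm38.p6 that ends just before the annotated gene start, at chr17:74047917-74048110 for *Srd5a2* and chr17:79715062-79715311 for *Cyp1b1*, both read on the minus strand, with capitals marking the AHR core element (GCGTG, or CACGC on the other strand).
*Srd5a2* promoter: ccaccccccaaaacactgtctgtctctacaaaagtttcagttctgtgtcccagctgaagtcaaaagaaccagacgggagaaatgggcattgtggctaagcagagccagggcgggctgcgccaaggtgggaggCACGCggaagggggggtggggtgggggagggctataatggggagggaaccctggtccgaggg
*Cyp1b1* promoter: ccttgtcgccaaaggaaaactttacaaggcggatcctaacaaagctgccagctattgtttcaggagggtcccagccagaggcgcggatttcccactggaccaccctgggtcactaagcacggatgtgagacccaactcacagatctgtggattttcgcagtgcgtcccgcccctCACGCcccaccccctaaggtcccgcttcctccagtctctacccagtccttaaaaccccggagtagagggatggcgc
Each window held 1 AHR core element, a motif found in 28.2% of the 32851 mouse promoters in the table. The windows of *Srd5a1*, *Hsd11b1* and *Hsd17b7* held it too, and that of *Srd5a3* did not. The *Hsd11b1* window, at chr1:193242361-193242610, lay inside the annotated gene and not before its start. The half-site of the androgen and glucocorticoid receptors (AGAACA or TGTTCT, in 16.1% of promoters) was found only in the *Hsd17b7* window. A TATA motif (TATAAA or TTTATA, in 12.4%) was in none of these 6. *Hsd11b2* and *Hsd17b4* were not searched.

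In the same build *Srd5a1* was annotated at chr13:69573449-69611442 (minus), *Srd5a3* at chr5:76140271-76155504 (plus), *Hsd11b1* at chr1:193221634-193264075 (minus), *Hsd11b2* at chr8:105518755-105523988 (plus), *Hsd17b4* at chr18:50128201-50196269 (plus) and *Hsd17b7* at chr1:169949535-169969241 (minus). All 8 are protein coding. Exons of *Srd5a1* and *Srd5a2* overlap those of *Gm17108* and *CT025731.1* on the same strand. Position alone does not tell which gene a read in the shared stretches came from, and how such reads were counted was not checked.

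Levels are given as CPM, the UMIs of a gene per 1000000 UMIs of the same population and library, and because 3′ counts were not scaled by length or capture they compare populations and genotypes for 1 gene, not genes with each other. In DTA- penises *Srd5a2* was mesenchymal: its highest means were in the *Sostdc1*/*Wnt16* cluster (109 ± 42.3 CPM, SD, n = 2), the *Hand2os1*/*Prss35* cluster (92.5 ± 28.7 CPM) and the periurethra (87.0 ± 19.5 CPM), whose ranges overlapped. The corpus cavernosum, the chondrogenic mesenchyme of the erectile body, followed at 48.6 ± 18.9 CPM without overlapping the periurethra. Neural cells and macrophages held 0 UMIs of *Srd5a2* in all 4 libraries, endothelium 3 in all and epithelium 1. The red blood cell cluster held 21.1 and 42.9 CPM in the DTA- libraries, but that cluster also detected all 7 mesenchymal marker genes, with *Col1a1*, a collagen of mesenchyme, at 1520 and 1595 CPM beside 2100 and 3036 CPM in the mesenchyme. Whether *Srd5a2* there came from carried-over mesenchymal RNA was not tested. The other members had other high points. *Srd5a1* was highest in epithelium (34.3 ± 1.22 CPM), *Srd5a3* in macrophages (55.9 ± 1.06 CPM) and *Cyp1b1* in the subdermal prepuce (40.2 ± 2.30 CPM), the general prepuce (48.9 ± 69.1 CPM, from 100 and 17 cells) and the periurethra (27.0 ± 9.39 CPM), while *Hsd17b4* was spread over nearly all populations.

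**Figure D1:**
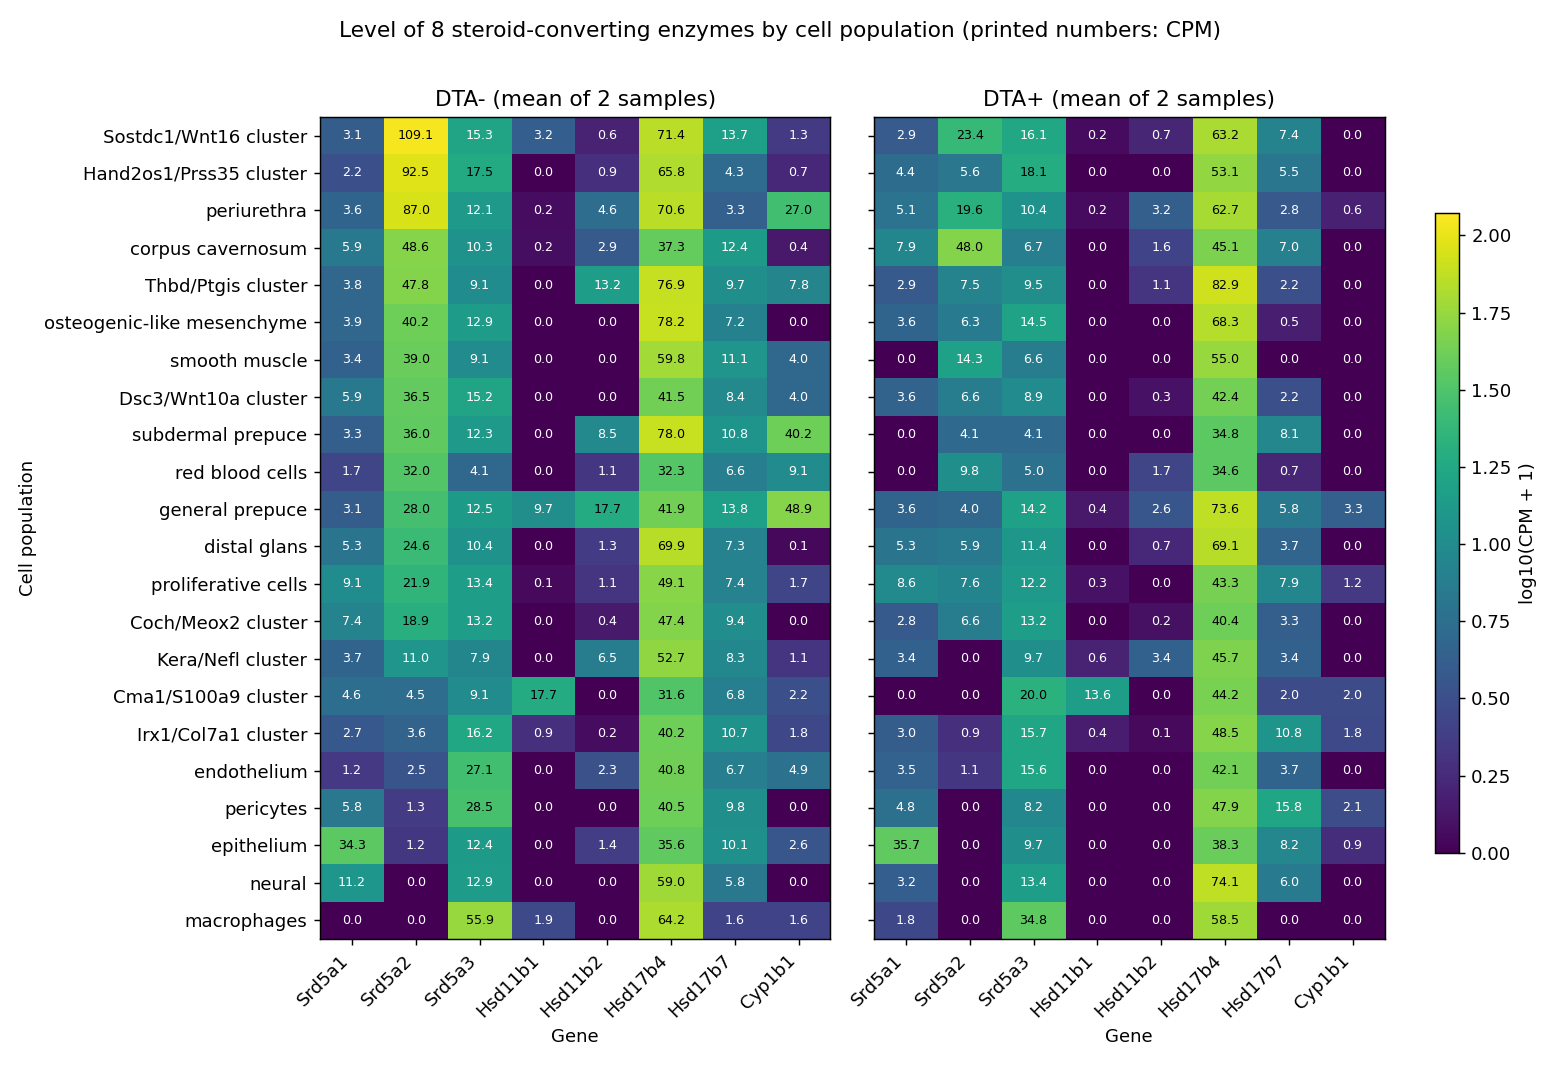
Mean level of each enzyme gene (columns) in each population (rows) of the DTA- penises (left) and DTA+ penises (right), n = 2 each, with colour for log10(CPM + 1) and the CPM printed. In DTA- *Srd5a2* is high in mesenchymal populations and at or near 0 in neural cells, macrophages, endothelium and epithelium, *Srd5a1* is highest in epithelium, and *Hsd17b4* appears throughout.

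*Srd5a2* transcripts were lower in DTA+ penises in most mesenchymal populations. Over all cells its level was 30.8 and 53.4 CPM in the DTA- libraries and 13.1 and 9.52 CPM in the DTA+ libraries. The groups did not overlap, the control libraries differed from each other by more than the DTA+ libraries did, and the log2 fold change of -1.97 ± 0.29 (SE) missed the threshold of 0.05 by edgeR's quasi-likelihood test (adjusted p = 0.0544 over 15977 genes). Here and below, the SE is the size of the log2 change divided by the square root of the test's F statistic. It is not a separate estimate of spread and can be smaller than counting error where few UMIs were counted. By edgeR's test none of the 8 members was called over all cells, where 0.488% of genes were called and 0.225% were called lower, while 5 had an unadjusted p under 0.05 and DESeq2 called 3 (*Srd5a2*, *Cyp1b1* and *Hsd11b2*). DESeq2 called 3.47% of all genes there. The share of all genes with an unadjusted p under 0.05 was not counted, here or elsewhere, so counts at that threshold are a description. Over all mesenchyme, 28663 cells, *Srd5a2* stood at 32.8, 57.1, 14.5 and 9.99 CPM in DTA- replicates 1 and 2 and DTA+ replicates 1 and 2, and it was called lower (log2 fold change -1.95, edgeR adjusted p = 0.0355). Without DTA- replicate 2, the library with the highest level, the mesenchymal change was -1.51 and was no longer called (edgeR adjusted p = 0.0746). Of the 8 members, 2 were called over all mesenchyme, *Srd5a2* and *Cyp1b1*, both lower, against 1.3% of all 15270 genes tested and 0.642% called lower. In bulk sums of this kind, fewer expressing cells and less RNA per cell cannot be told apart.

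Within populations, *Srd5a2* passed the filter on low counts in 11 of the 19. Its fold change was below 0 in all 11, with 8 called lower and none higher by edgeR. In the *Hand2os1*/*Prss35* and *Dsc3*/*Wnt10a* clusters it passed through the DTA- libraries alone, so the filter favoured a value below 0 there. In the *Thbd*/*Ptgis* cluster, osteogenic-like mesenchyme and the red blood cell cluster the DTA+ libraries would not have met the filter by themselves. The filter favoured a value below 0 there too, so the counts of 11 and 8 are a description. DESeq2, which gave no adjusted p for some of the 11, called 3 of them. Among the 11 was the red blood cell cluster, where 51 UMIs in DTA- stood against 7 in DTA+ without overlap. Its change of -2.09 ± 0.62 was not called (edgeR adjusted p = 0.187). Of all gene and population tests, 3.3% were called and 1.68% were called lower. In the periurethra, the mesenchyme around the urethra marked by *Foxf1*, *Foxf2*, *Foxl2* and *Sall3*, *Srd5a2* was at 73.2 and 101 CPM in the DTA- libraries and 23.1 and 16.1 CPM in the DTA+ libraries. The genotypes did not overlap, and the log2 fold change was -2.22 ± 0.23 (edgeR adjusted p = 0.000746; 1.91% of the genes tested there were called lower). A *Srd5a2* UMI was found in 24.5 and 29.0% of control periurethral cells and in 6.51 and 5.51% of DTA+ cells, and after every cell was thinned to 1000 UMIs, which removes the depth difference, in 5.79 and 10.3% against 2.97 and 1.49%. Neural cells had a *Srd5a2* UMI in 0 of 50, 67, 87 and 66 cells at median depths of 4349 to 5070 UMIs. The 2 periurethral clusters had medians of 3968 and 3880 UMIs. The neural zeros allow shares of up to 3.45 and 4.55% in the DTA+ libraries, below the periurethral shares there. The planned background, the red blood cell cluster, was not near 0, at 32.0 ± 15.4 CPM in DTA- and 9.78 ± 10.0 CPM in DTA+. Neural cells therefore do not set the background for every population. Both periurethral clusters showed the drop when taken alone, the *Epha3*/*Mup17* cluster with -1.83 and the other cluster with -2.75 on the log2 scale, where 2.4 and 1.23% of genes were called lower.

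In the *Sostdc1*/*Wnt16* cluster, the population with its highest control level, *Srd5a2* went from 79.2 and 139 CPM to 34.7 and 12.1 CPM (log2 fold change -2.30, edgeR adjusted p = 0.00405), and 1.32% of its genes were called lower. The largest called change was in the *Hand2os1*/*Prss35* cluster, a log2 fold change of -4.16 ± 0.41 where 0.536% of genes were called lower. Its 72.2 and 113 CPM (38 and 77 UMIs) in DTA- stood against 7.94 and 3.31 CPM (6 and 4 UMIs) in DTA+. *Srd5a2* passed the filter there through the DTA- libraries alone, so the call is a description of that cluster. The *Thbd*/*Ptgis* cluster fell from 37.0 and 58.7 CPM to 9.09 and 5.82 CPM (-2.73, edgeR adjusted p = 2.31e-05, with 6.8% of genes called lower). Its DTA+ libraries would not have met the filter by themselves. These 3 clusters met no marker set and cannot be assigned a position in the penis. Each call held when any 1 library was left out. The genotypes did not overlap in any of the 3, but the share of all genes without overlap was not counted, here or elsewhere. DESeq2 did not call the *Sostdc1*/*Wnt16* change (-2.28, DESeq2 adjusted p = 0.152). The distal glans, marked by *Msx1*, *Msx2* and *Inhba*, went from 16.5 and 32.8 CPM to 5.5 and 6.37 CPM (-2.01, edgeR adjusted p = 0.00262, with 2.87% of genes called lower). Within it, the *Msx2*/*Inhba* cluster taken alone gave -2.82 and was called, where 0.534% of genes were called lower, and the *Tac1*/*Col13a1* cluster gave -0.73 with no call (edgeR adjusted p = 0.282). The difference between these 2 clusters was not tested. In the *Msx2*/*Inhba* cluster the DTA+ libraries would not have met the filter by themselves.

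The remaining calls rested on fewer UMIs or on single libraries. In the *Coch*/*Meox2* cluster *Srd5a2* was at 19.0 and 18.8 CPM in DTA- and 4.93 and 8.18 CPM in DTA+ (-1.59, edgeR adjusted p = 0.00343, with 4.51% of genes called lower), and the call was lost without DTA+ replicate 1 (-1.22, edgeR adjusted p = 0.219). In osteogenic-like mesenchyme the values of 18.1, 62.3, 12.2 and 0.504 CPM spread widely within both genotypes, and the change of -3.13, in a population with 1.61% of genes called lower, became -1.52 with no call without DTA+ replicate 2 (edgeR adjusted p = 0.0958). In the *Dsc3*/*Wnt10a* cluster 22.7 and 50.3 CPM stood against 5.98 and 7.25 CPM (-2.17, edgeR adjusted p = 0.0335, with 0.126% of genes called lower), a call lost without DTA- replicate 2 (-1.72, edgeR adjusted p = 0.0697). Proliferative cells, with 12.1, 31.7, 6.14 and 9.07 CPM, were not called (-1.61, edgeR adjusted p = 0.282), although 1 of their 2 clusters, the *Hist1h1b*/*Cenpf* cluster, was called when taken alone (-2.25, edgeR adjusted p = 0.031, with 0.44% of genes called lower). The DTA+ libraries of that cluster would not have met the filter by themselves. In the *Kera*/*Nefl* cluster *Srd5a2* did not pass the filter, with 3 and 19 UMIs in DTA- and 0 in both DTA+ libraries, at least 6.79-fold lower when the DTA+ group is set at a floor of 3 UMIs. That limit rests on DTA- replicate 2, since the 3 UMIs of DTA- replicate 1 are themselves at the floor and give none. The *Irx1*/*Col7a1* cluster was low in every library, at 3.22, 3.96, 1.21 and 0.62 CPM, and was not tested.

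**Figure D2:**
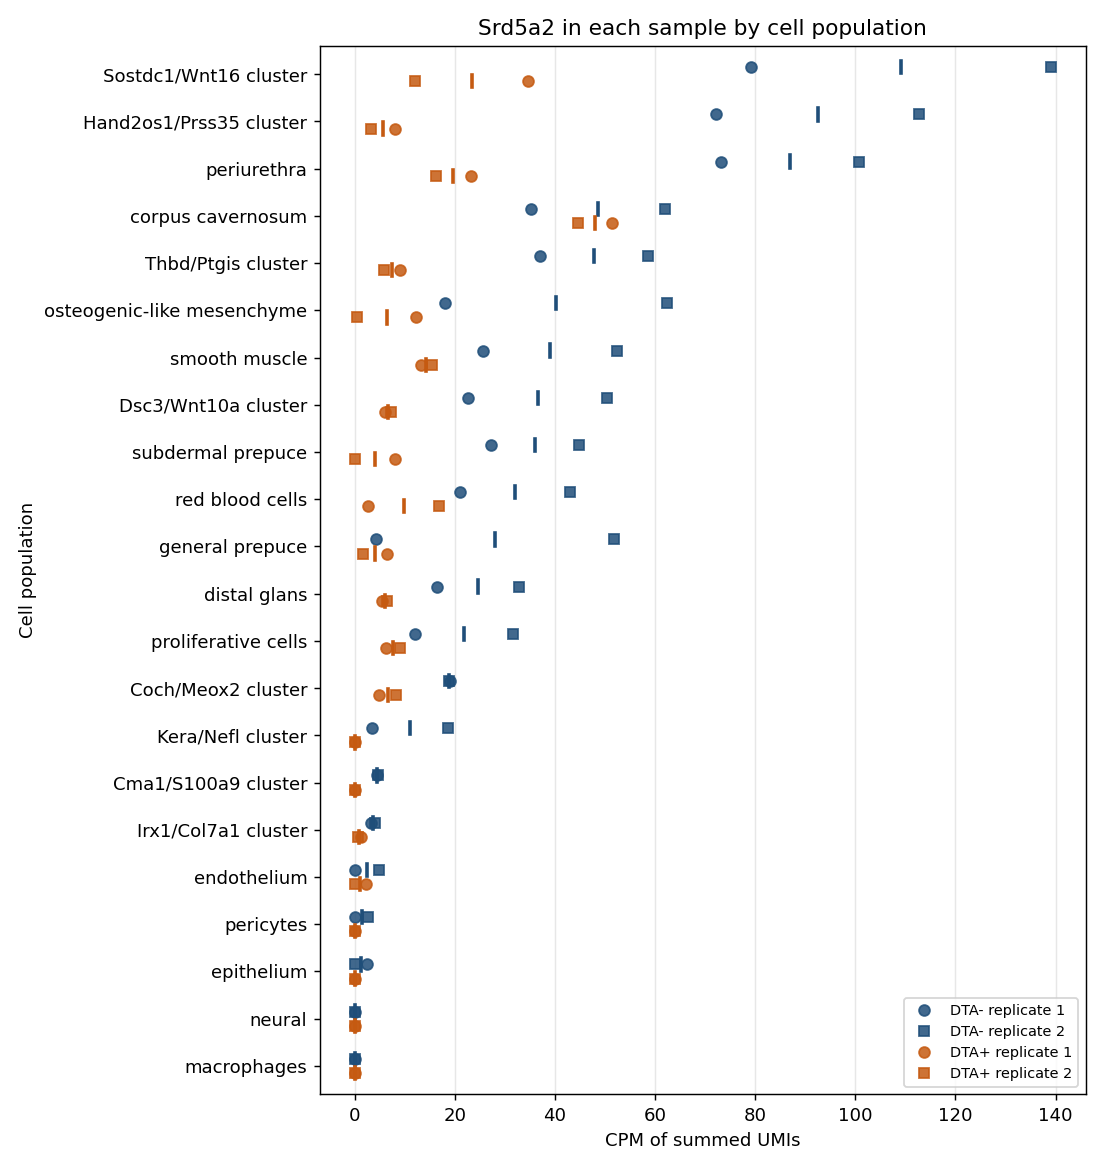
Level of *Srd5a2* in CPM in each library, by population, with 1 point for each DTA- (blue) and DTA+ (orange) library on a linear axis and vertical lines at the group means. The DTA+ points lie below both DTA- points in most mesenchymal populations, while in the corpus cavernosum the DTA+ libraries, at 51.4 and 44.6 CPM, lie between the DTA- libraries at 35.2 and 61.9 CPM.

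The corpus cavernosum stood apart. Its cells, defined by *Sox9*, *Sox5*, *Sox6*, *Col2a1* and *Col9a1*, held *Srd5a2* at 35.2 and 61.9 CPM in DTA- (90 and 166 UMIs) and 51.4 and 44.6 CPM in DTA+ (143 and 124 UMIs). Both DTA+ libraries lay inside the control range, and the log2 fold change was -0.13 ± 0.23 (edgeR adjusted p = 0.795). Without DTA- replicate 2 it turned to 0.37. The total rested on the *Sox9*/*Ecrg4* cluster (37.1, 63.3, 55.9 and 47.6 CPM, -0.07). In the smaller *Col9a1*/*Col9a3* cluster, of 33 to 56 cells a library, *Srd5a2* did not pass the filter, and 2 and 15 UMIs in DTA- (10.6 and 50.7 CPM) stood against 1 and 1 in DTA+ (4.14 and 5.18 CPM), with no overlap. Of all genes tested in the whole corpus cavernosum 7.81% were called, beside 3.61% in the periurethra. Cells with a *Srd5a2* UMI made up 14.5 and 21.9% of control and 13.9 and 13% of DTA+ cells, and 3.98, 5.47, 5.67 and 3.61% after thinning.

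The difference in response was itself tested as the interaction of population and genotype, with the library as a block. The corpus cavernosum exceeded the periurethra by 2.12 ± 0.23 in log2 fold change (edgeR adjusted p = 4.43e-05; 3.03% of genes were called in that test), and by 1.93 to 2.32 when each library was left out in turn. The distal glans did not differ from the periurethra detectably (0.28 ± 0.33, edgeR adjusted p = 0.812, with 1.8% of genes called), which does not show that they responded alike. In comparisons added after the values were seen, the other 10 mesenchymal populations with a test were each set against the corpus cavernosum, and in 9 of them *Srd5a2* fell further. The smallest called difference was -1.43 in proliferative cells (edgeR adjusted p = 0.0256), which was lost without DTA- replicate 2 (-1.11) or DTA+ replicate 1 (-1.14), and the largest with counts in every library was -4.01 in the *Hand2os1*/*Prss35* cluster. The share of all genes called in these comparisons was 5.14% for the *Irx1*/*Col7a1* cluster, 4.45% for *Sostdc1*/*Wnt16*, 2.8% for *Thbd*/*Ptgis*, 2.18% for *Coch*/*Meox2*, 1.94% for proliferative cells and 1.89% for the distal glans. It was 1.8% for osteogenic-like mesenchyme, 1.62% for *Kera*/*Nefl*, 1.31% for *Hand2os1*/*Prss35* and 1.2% for *Dsc3*/*Wnt10a*. The calls in the *Sostdc1*/*Wnt16*, *Thbd*/*Ptgis*, *Dsc3*/*Wnt10a* and *Hand2os1*/*Prss35* clusters and the distal glans held when any 1 library was left out, with the *Sostdc1*/*Wnt16* difference between -3.01 and -1.67. The *Coch*/*Meox2* call was lost without DTA- replicate 1 or DTA+ replicate 1 (-1.09 and -1.04), the osteogenic-like call without DTA+ replicate 2 (-1.54) and the *Kera*/*Nefl* call without DTA- replicate 2. The *Irx1*/*Col7a1* cluster, at -1.65, was not called (edgeR adjusted p = 0.131).

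**Figure D3:**
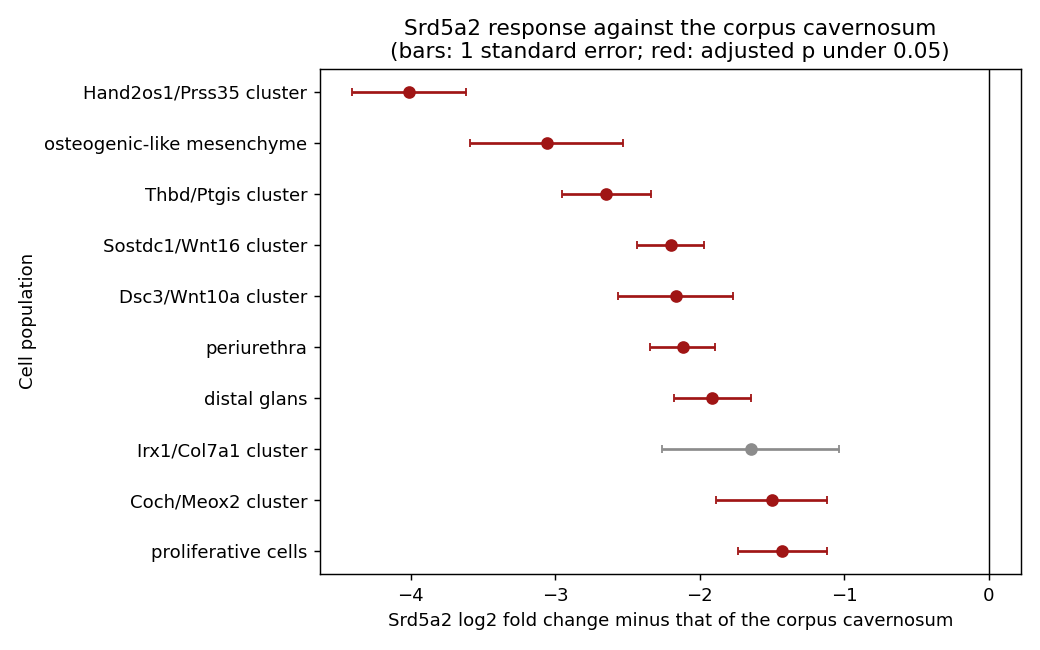
Difference in the *Srd5a2* log2 fold change between each mesenchymal population and the corpus cavernosum, with bars of 1 standard error worked back from the F statistic and red points where the adjusted p was under 0.05. The called differences range from -1.43 in proliferative cells to -4.01 in the *Hand2os1*/*Prss35* cluster, and the *Kera*/*Nefl* cluster, with no UMI in DTA+, is left out.

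The prepuce could be compared only after its 3 clusters were joined, a step added after the data were seen. In DTA- libraries the joined cells came mostly from the *Ly6a*/*Mt1* cluster of the subdermal prepuce, and in DTA+ libraries from the 2 clusters of the general prepuce, so the values compare different mixtures. For *Srd5a2*, *Hsd11b2* and *Cyp1b1* the DTA+ libraries would not have met the filter there by themselves, so the filter favoured a value below 0. *Srd5a2* there was at 21.1 and 44.9 CPM in DTA- and 6.4 and 1.61 CPM in DTA+ (-3.26, edgeR adjusted p = 0.013, where 2.2% of genes were called lower). Without DTA- replicate 2 it was -2.51 and not called (edgeR adjusted p = 0.141).

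The other 5α-reductases gave no call. *Srd5a1*, the isoform of skin and many other tissues, was at 5.17, 4.84, 4.78 and 4.96 CPM over all cells (log2 fold change -0.11 ± 0.18, edgeR adjusted p = 0.798). Its level in epithelium, 35.2 and 33.5 CPM in DTA- and 42.0 and 29.3 CPM in DTA+, rested on 10 to 24 UMIs in a library and overlapped between genotypes (0.02 ± 0.42). It passed the filter in 7 populations with no call, and its lowest fold change was in the *Coch*/*Meox2* cluster (-1.37, edgeR adjusted p = 0.0963), where 6.6 and 8.2 CPM stood against 2.96 and 2.73 CPM. *Srd5a3*, which reduces polyprenol to dolichol for N-glycosylation, was at 14.4, 11.1, 11.6 and 13.2 CPM over all cells (-0.12 ± 0.18, edgeR adjusted p = 0.793) and was called in none of the 13 populations in which it passed the filter. In macrophages it was at 56.6 and 55.1 CPM in DTA- and 22.3 and 47.4 CPM in DTA+ (-0.73, edgeR adjusted p = 0.939), from 7 to 17 UMIs. At an unadjusted p under 0.05 each of the 2 genes had 1 population, and DESeq2 called neither anywhere. The genes' responses were not tested against each other.

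**Figure D4:**
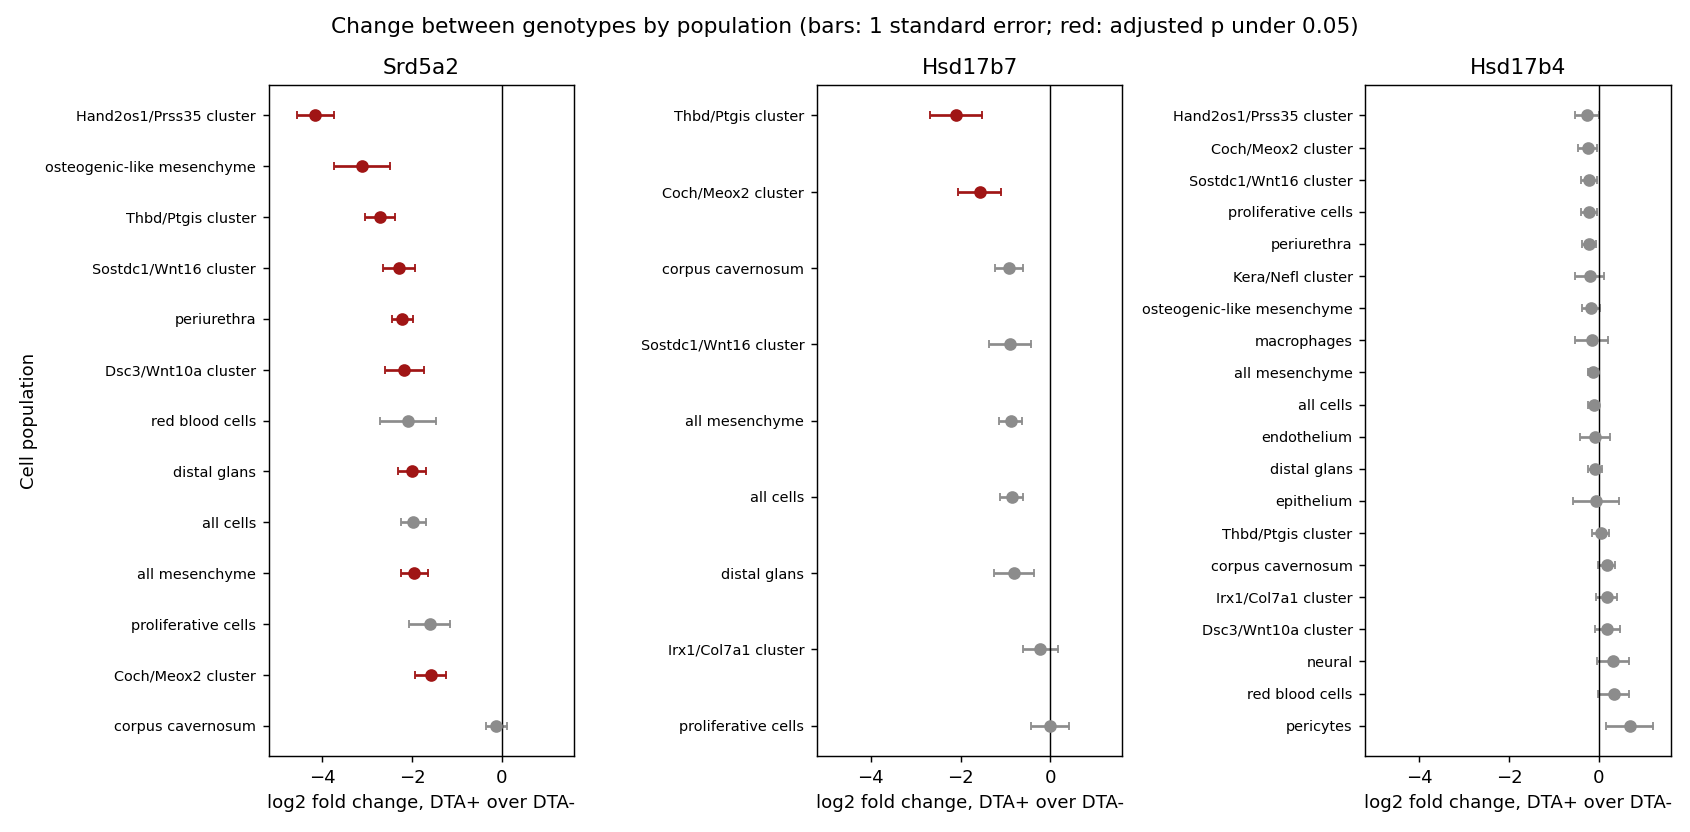
Log2 fold change, DTA+ over DTA-, of *Srd5a2*, *Hsd17b7* and *Hsd17b4* (1 panel each) in all cells, all mesenchyme and each population where the gene passed the filter, with bars of 1 standard error worked back from the F statistic and red points where the adjusted p was under 0.05. The red points lie below 0, *Srd5a2* in the corpus cavernosum is at -0.13, and *Hsd17b4* stays between -0.27 and 0.69 with no call.

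*Hsd11b1* transcripts were scarce in this tissue. Over all cells there were 15 and 29 UMIs in DTA- and 5 and 11 in DTA+, or 0.488, 0.883, 0.168 and 0.325 CPM (log2 fold change -1.52 ± 0.53, edgeR adjusted p = 0.267), and in no population did the gene pass the filter. Its highest level was in the *Cma1*/*S100a9* cluster, which held 6, 2, 2 and 5 UMIs (26.2, 9.18, 6.79 and 20.4 CPM) and whose genotypes overlapped. That cluster met the mast cell markers, but *S100a8* and *S100a9*, genes of neutrophils, were also among its leading genes. When its cells were divided after the values were seen, the 26 cells with more *S100a8* and *S100a9* UMIs held 11 of the *Hsd11b1* UMIs, in 8 cells, and the 154 cells with more *Cma1*, *Cpa3* and *Tpsb2* UMIs, genes of mast cell granules, held 0. The other 88 cells, with equal numbers, held 4. The 5 genes whose pattern was most like that of *Hsd11b1*, over 85 population and library pairs, were *Cstdc4*, *Stfa2l1*, *S100a9*, *Wfdc21* and *Gm11697* (Pearson r of log2(CPM + 10), 0.92 to 0.95). These points share libraries, and a gene this sparse takes its pattern from few UMIs. In the mesenchyme the *Sostdc1*/*Wnt16* cluster held 4 and 21 UMIs of *Hsd11b1* in DTA- and 0 and 1 in DTA+, of which 21 came from DTA- replicate 2.

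*Hsd11b2*, the glucocorticoid-inactivating enzyme, was also low, at 2.63 and 3.59 CPM in DTA- and 1.14 and 1.03 CPM in DTA+ over all cells. The genotypes did not overlap, and the change of -1.59 ± 0.28 was not called (edgeR adjusted p = 0.0791). It passed the filter in 1 population, the *Thbd*/*Ptgis* cluster, where it was called lower: 22 and 29 UMIs in DTA- stood against 1 and 2 in DTA+ (9.46, 17.0, 0.826 and 1.29 CPM, log2 fold change -3.52 ± 0.63, edgeR adjusted p = 0.000972). A gene that passes the filter in 1 population only had to be high in a group there, so this count is a description of that cluster. The call held when any 1 library was left out, in a population where 6.8% of genes were called lower. In the joined prepuce it was at 13.9 and 10.8 CPM in DTA- and 1.45 and 3.68 CPM in DTA+ (-2.24, edgeR adjusted p = 0.0226), a call lost without DTA- replicate 1 (edgeR adjusted p = 0.0669) or DTA- replicate 2 (edgeR adjusted p = 0.129). The DTA+ libraries of the joined prepuce would not have met the filter for *Hsd11b2* by themselves. In the periurethra its 3.73, 5.38, 3.08 and 3.35 CPM lay close together and were too low to test.

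*Hsd17b4*, the peroxisomal multifunctional enzyme, was the steadiest member. It was at 61.6 and 55.5 CPM in DTA- and 55.2 and 58.8 CPM in DTA+ over all cells (log2 fold change -0.11 ± 0.12, edgeR adjusted p = 0.69), and it passed the filter in 18 populations with no call, also at an unadjusted p under 0.05 or by DESeq2, and with fold changes from -0.27 to 0.69. *Hsd17b7*, which acts on estrone and on a sterol intermediate of cholesterol synthesis, was at 7.48 and 10.6 CPM in DTA- and 4.31 and 6.18 CPM in DTA+ over all cells (-0.86 ± 0.25, edgeR adjusted p = 0.208). It was called lower in 2 of the 7 populations where it passed the filter, beside 1.68% of all gene and population tests. In the *Thbd*/*Ptgis* cluster it was at 6.45, 12.9, 2.48 and 1.94 CPM (-2.10, edgeR adjusted p = 0.0236), where 6.8% of all genes were called lower. In the *Coch*/*Meox2* cluster it was at 8.25, 10.6, 2.46 and 4.09 CPM (-1.57, edgeR adjusted p = 0.0385), where 4.51% were called lower. Both calls rested on 3 to 22 UMIs in a library. In both clusters *Hsd17b7* passed the filter through the DTA- libraries alone, so these calls are a description of the clusters. The *Thbd*/*Ptgis* call was lost without DTA+ replicate 1 (edgeR adjusted p = 0.111) or DTA+ replicate 2 (edgeR adjusted p = 0.171), without DTA- replicate 2 the gene no longer passed the filter there, and the *Coch*/*Meox2* call was lost without any 1 of the 4 libraries. In the corpus cavernosum it was at 12.9 and 11.9 CPM against 8.27 and 5.76 CPM, with no call (-0.92, edgeR adjusted p = 0.0852). In its larger *Sox9*/*Ecrg4* cluster alone *Hsd17b7* was called lower (-1.16, edgeR adjusted p = 0.0462), where 4.23% of genes were called lower.

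Genes of cholesterol synthesis, the pathway that HSD17B7 serves, were called lower in several populations, with the most calls in the *Thbd*/*Ptgis* cluster. Their list was chosen with earlier results of these data known, so the counts are a description. Of 19 genes listed, 16 were tested in the *Thbd*/*Ptgis* cluster and 10 were called lower, none higher, with a median log2 fold change of -1.02 beside 0.01 for all genes tested there, of which 6.8% were called lower. *Idi1*, an isoprenoid isomerase, fell from 35.7 and 56.3 CPM to 0.826 and 5.17 CPM (-3.82), and *Msmo1*, a sterol methyl oxidase, from 44.7 and 48.1 CPM to 8.26 and 8.41 CPM (-2.51). *Mvd*, a decarboxylase of the mevalonate pathway, changed by -1.52. *Idi1* and *Mvd* passed the filter there through the DTA- libraries alone, so the filter favoured a value below 0 for them. How many other genes of the list did so was not counted. In the *Coch*/*Meox2* cluster 6 of 18 tested genes were called lower, beside 4.51% of all genes, and in the corpus cavernosum 5 of 18, beside 3.99%. In the *Sostdc1*/*Wnt16* cluster 3 of 19 were called lower (beside 1.32%) and in the distal glans 3 of 18 (beside 2.87%). Osteogenic-like mesenchyme had 1 of 15 (beside 1.61%) and the periurethra 1 of 17 (beside 1.91%), with none higher in any of these. Over all cells edgeR called none of the 19, with a median of -0.50, but 12 had an unadjusted p under 0.05 and DESeq2 called 5, beside 3.47% of all genes by DESeq2.

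*Cyp1b1* had the largest fold change of the 8 genes over all cells and in the periurethra. Over all cells it was at 6.41 and 9.17 CPM in DTA- (197 and 301 UMIs) and 0.269 and 1.09 CPM in DTA+ (8 and 37 UMIs). The groups did not overlap, and the log2 fold change of -3.55 ± 0.52 had the same adjusted p as *Srd5a2* (edgeR adjusted p = 0.0544). For *Cyp1b1* the DTA+ libraries would not have met the filter by themselves, over all cells or over all mesenchyme. Over all mesenchyme the change was -3.59 and was called (edgeR adjusted p = 0.0297), but not without DTA- replicate 1 (edgeR adjusted p = 0.081) or DTA- replicate 2 (edgeR adjusted p = 0.0764). In the periurethra, the only population where it passed the filter, 60 and 75 UMIs in DTA- stood against 1 and 2 in DTA+ (20.3, 33.6, 0.514 and 0.609 CPM, -5.47 ± 0.51, edgeR adjusted p = 0.000409), and this call held when any 1 library was left out. The gene passed the filter there through the DTA- libraries alone, so the call is a description of that population. Nearly all periurethral transcripts lay in 1 of its 2 clusters, where 58 and 65 UMIs in DTA- stood against 0 in both DTA+ libraries, at least 46.1-fold lower. In the other, the *Epha3*/*Mup17* cluster, it was at 1.25, 8.41, 1.24 and 1.16 CPM. Outside the periurethra the gene's highest control level was in the prepuce. In the joined prepuce it was at 54.4 and 41.2 CPM in DTA- and 0.582 and 5.99 CPM in DTA+ (-3.81, edgeR adjusted p = 0.00501), with the change in cluster mixture and the limit of the filter described above. The *Thbd*/*Ptgis* cluster held 13 and 17 UMIs in DTA- and 0 in DTA+, at least 6.84-fold lower. The corpus cavernosum and the distal glans held at most 1 UMI of *Cyp1b1* in any library.

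**Figure D5:**
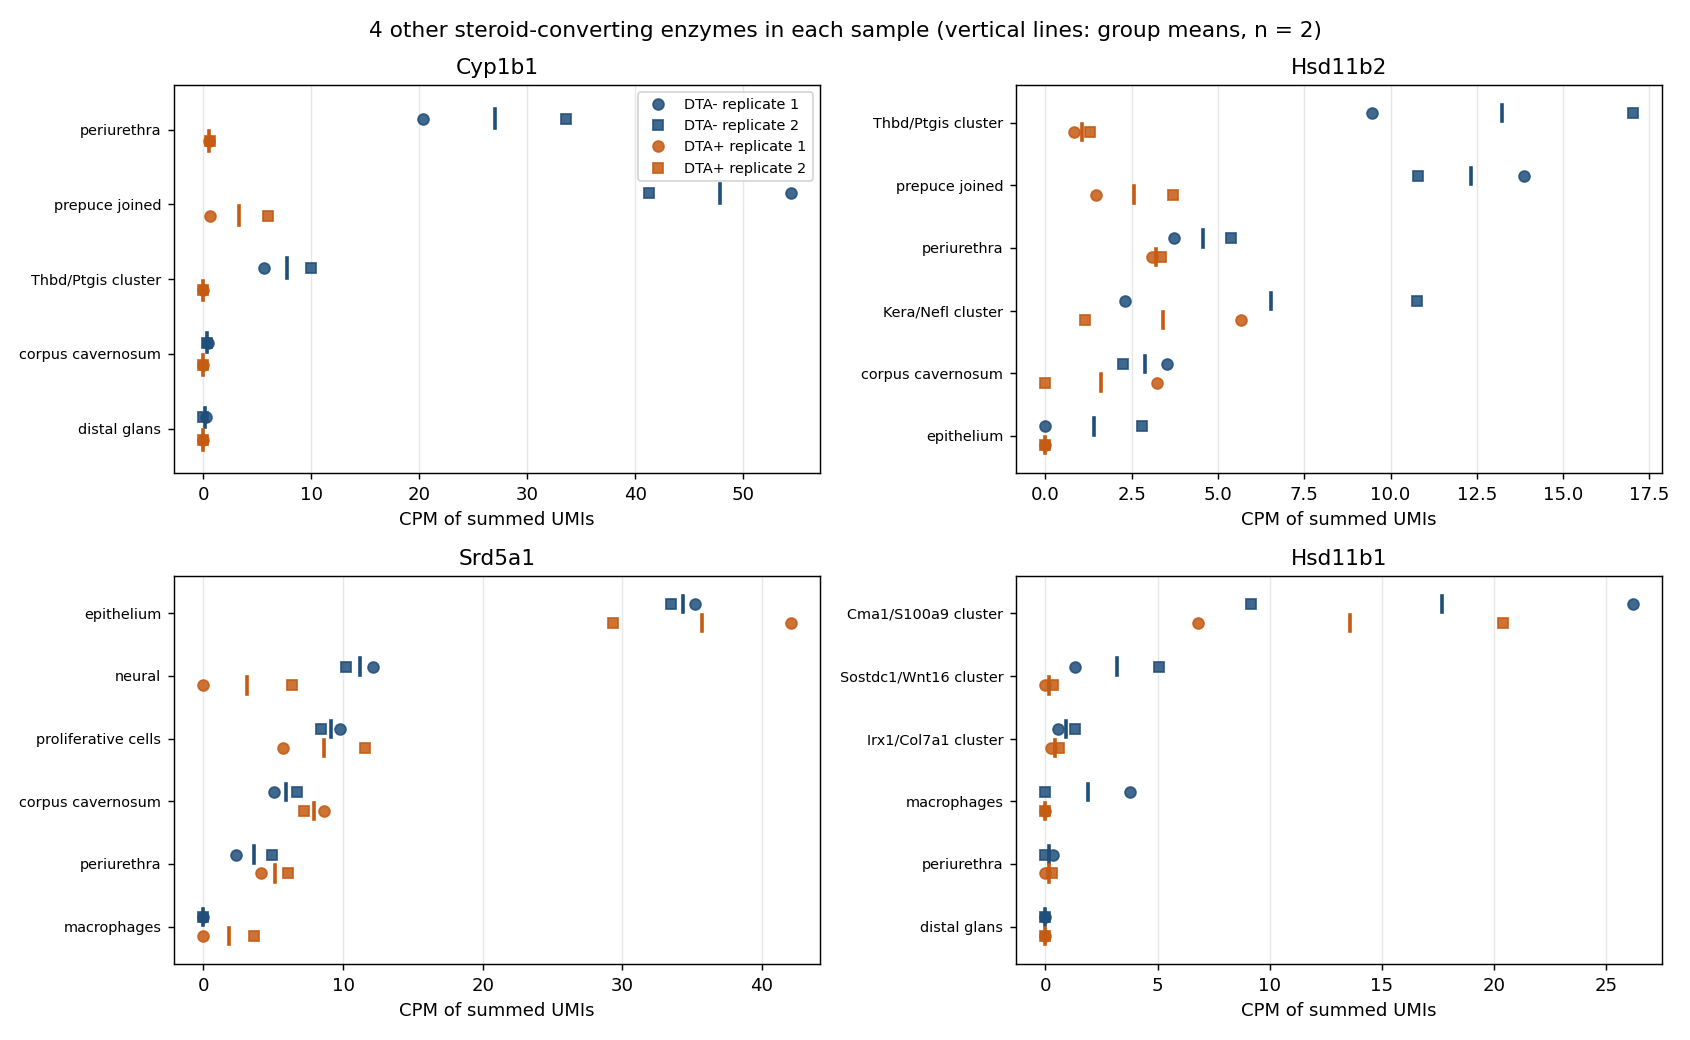
Levels in CPM of *Cyp1b1*, *Hsd11b2*, *Srd5a1* and *Hsd11b1* (1 panel each) in selected populations, with 1 point per library, DTA- in blue and DTA+ in orange, and vertical lines at the group means. *Cyp1b1* in the periurethra stands at 20.3 and 33.6 CPM in DTA- and under 1 CPM in DTA+, *Hsd11b2* is lower in DTA+ in the *Thbd*/*Ptgis* cluster, and *Srd5a1* in epithelium and *Hsd11b1* in the *Cma1*/*S100a9* cluster overlap between genotypes.

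Genes of the AHR axis gave no edgeR call over all cells. Of 9 genes, 7 were tested, 1 had an unadjusted p under 0.05 and 1 was called by DESeq2, and the median log2 fold change was 0.14. In the periurethra *Tiparp*, an AHR-induced ADP-ribosyltransferase, was lower (38.3, 61.4, 21.6 and 20.7 CPM, -1.27, edgeR adjusted p = 0.0219), as it was in the *Thbd*/*Ptgis* cluster (-1.09). In osteogenic-like mesenchyme it was called in the opposite direction, from 16.0 and 13.3 CPM to 35.1 and 37.3 CPM (1.29, edgeR adjusted p = 0.0110). *Ahr* itself rose in osteogenic-like mesenchyme (1.42) and in the *Coch*/*Meox2* cluster (1.15), where its repressor *Ahrr* rose too (1.5).

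Members of the neighbouring steroid pathways were read from lists of genes chosen by function. Of 13 genes of de novo synthesis from cholesterol, 4 were tested over all cells and none was called. None was called at an unadjusted p under 0.05 or by DESeq2 either. *Hsd3b1*, *Hsd17b3* and *Cyp11b2* had 0 UMIs in every library, and *Cyp17a1* had 0, 0, 0 and 2. *Fdx1*, on the same list, was not low, at 54.0 and 72.6 CPM in DTA- and 55.4 and 63.5 CPM in DTA+. *Cyp11a1*, the side-chain cleavage enzyme, had 84, 81, 162 and 77 UMIs over all cells, or 2.73, 2.47, 5.45 and 2.28 CPM. Over all mesenchyme it was at 0.317, 0.367, 0.451 and 0.158 CPM. A count of 0 in a library allows up to 3 UMIs, counting error only. Among other steroid oxidoreductases none of 7 was called over all cells (2 at an unadjusted p under 0.05, 0 by DESeq2), and in the distal glans *Hsd17b11* rose (9.64 and 8.5 CPM against 24.2 and 17.7 CPM, 1.10, edgeR adjusted p = 0.0164) while *Hsd17b12* fell (64.2 and 66.4 CPM against 47.3 and 41.0 CPM, -0.62, edgeR adjusted p = 0.0392). *Hsd17b11* also rose in the corpus cavernosum (0.94). Among genes of steroid conjugation, *Sult1a1*, a sulfotransferase of phenols and estrogens, fell from 11.3 and 10.6 CPM to 2.42 and 1.65 CPM over all cells (-2.50, edgeR adjusted p = 0.0206), 1 of 4 tested. *Papss2*, which makes the sulfate donor, joined it over all mesenchyme (-1.08, edgeR adjusted p = 0.0300), and in the periurethra *Sult1a1* changed by -4.17 and *Papss2* by -2.23, both called. *Sult1a1* passed the filter in the periurethra through the DTA- libraries alone, so that call is a description. None of the 7 cofactor and redox partner genes, the 13 peroxisomal genes or the 11 dolichol pathway genes tested was called over all cells by edgeR, with 1 of each list at an unadjusted p under 0.05 and 1 peroxisomal gene called by DESeq2. In single clusters *Cyb5a* (-0.53) and *Alg14* (-0.80) were lower in the *Coch*/*Meox2* cluster and *Abcd2* (1.46) was higher in the distal glans.

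The list of glucocorticoid-induced genes, like the other lists, was chosen with earlier results of these data known, so counts over it are a description. Glucocorticoid-induced genes were called lower in several populations. Of 10 such genes 6 were called lower in the periurethra and none higher (median -1.98, beside 1.91% of all genes called lower). In the *Sostdc1*/*Wnt16* cluster 6 of 10 were called lower (median -1.24, beside 1.32%) and in the *Thbd*/*Ptgis* cluster 5 of 9 (-2.44, beside 6.8%). The joined prepuce had 5 of 10 (-1.52, beside 2.2%) and the *Irx1*/*Col7a1* cluster 4 of 10 (-1.03, beside 0.371%), with none higher in these. In the corpus cavernosum 5 were called lower and 1 higher among 9, beside 3.99% lower. The distal glans (3 lower of 10, beside 2.87%) and the *Hand2os1*/*Prss35* cluster (2 of 6, beside 0.536%) also had 1 higher each. Over all cells edgeR called *Fkbp5* alone (-2.63), while 7 of the 10 had an unadjusted p under 0.05 and DESeq2 called 3, beside 3.47% of all genes by DESeq2. Of 6 steroid receptors *Esr1*, an estrogen receptor, was the 1 called by edgeR over all cells (2.15), with 4 at an unadjusted p under 0.05 and 3 called by DESeq2, beside the same 3.47%. The genes of the *Nr5a1* lineage list, which the study itself picked, gave no edgeR call over all cells (8 tested, median -0.68, 3 at an unadjusted p under 0.05, 2 called by DESeq2). In the periurethra 1 of 6 was called lower, beside 1.91% of all genes. In the joined prepuce, whose cluster mixture changed between genotypes, 5 of 8 were called lower (median -1.59, beside 2.2%). In the *Sostdc1*/*Wnt16* cluster *Col6a6* (-1.73) and *Myocd* (-1.43) were the 2 called of 6 tested, beside 1.32% of all genes called lower. The genes of dissociation stress, a sign of handling, gave no call over all cells or in the periurethra, also at an unadjusted p under 0.05 or by DESeq2, but in osteogenic-like mesenchyme 5 rose, led by *Dusp1* (1.38), *Egr1* (1.14) and *Junb* (1.00), and *Hspa1a* fell by 1.77 on the log2 scale. In the *Coch*/*Meox2* cluster *Dusp1* (1.41), *Fos* (1.15) and *Junb* (0.85) rose and *Hspa1a* and *Hspa1b* fell, in the *Thbd*/*Ptgis* cluster *Atf3* (-1.88), *Junb* (-0.78) and *Hspa1a* (-1.55) fell, and in the corpus cavernosum *Hspa1a* fell (-1.58). Of all genes, 4.47% were called in osteogenic-like mesenchyme, 9.52% in *Coch*/*Meox2*, 12.3% in *Thbd*/*Ptgis* and 7.81% in the corpus cavernosum, in either direction. Over all cells the 2 DTA- libraries differed in stress genes, with *Fos* at 53855 and 148238 UMIs beside 128631 and 131688 in DTA+. *Hspa1a* (1845 and 951 beside 925 and 521) and *Hspa1b* ran the other way between the DTA- libraries. The lack of a call over all cells therefore does not show that handling was alike. The part of the stress genes in the values of *Srd5a2*, *Hsd11b2* and *Hsd17b7*, over all cells or in the populations named, was not tested.

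The genes whose levels ran most like those of *Srd5a2*, over 85 pairs of population and library from 22 populations, were *Igfbp2* (Pearson r 0.68), *Crispld1* (0.67), *Mme* (0.66), *Ahcyl2* (0.65) and *Foxf2* (0.64), among 10335 genes. *Fkbp5* stood at 0.52. The points share libraries and depth, and they include both genotypes, so these values are a description.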

How the data were processed

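Genital tissue of 4 embryos at E16.5 was dissociated and sequenced as 10x 3′ libraries. Per the labels and the study's methods, the authors made the deposited UMI count matrices with Cell Ranger against mm10 with added reporter sequences (the notes name version 4.0.0, the methods another) and deposited them before their limits on cells. The study's limits were applied here: a cell was kept with more than 1000 but fewer than 7500 UMIs, no more than 25% of them mitochondrial, and alpha and beta globin shares of up to 25% and 50%. Cells were clustered jointly in Seurat 5.3.0 (2000 variable genes without the 8 members, 30 components, resolution 0.8) and named by fixed marker lists. Automatic doublet calling marked 0 or 1 cell a library and so did not work. Doublets were left in, and an alternative left out the cells with the highest scores. The deposited counts were summed by library and population and tested with edgeR 4.0.16 (quasi-likelihood, TMM, filterByExpr, Benjamini-Hochberg adjustment over all genes of a population), calling an adjusted p under 0.05. With 2 against 2 libraries an exact permutation test cannot go below p = 0.333. No error but counting error stands behind the limit of 3 UMIs for a count of 0. Every member is named, with up to 3 called genes a direction from each of 12 lists and the 5 most alike genes, some of which are not reported here. The members and lists were chosen with earlier results of these data known. Alternatives used DESeq2 1.42.0, other filters, clusterings, thinned counts, replicate blocks and each library left out. The test was checked on simulated counts. Gene positions are from GENCODE M21 and promoters from RefSeq.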

Additional observations from a re-analysis of the deposited data

Results flagged for a closer look

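The genotype change of *Srd5a2* differed between the corpus cavernosum and 10 other mesenchymal populations by a test of the difference itself (edgeR interaction of population and genotype, adjusted p under 0.05). The difference in log2 fold change was 2.12 for corpus cavernosum minus periurethra. Set against the corpus cavernosum in comparisons added after the values were seen, it was -2.20 in the *Sostdc1*/*Wnt16* cluster, -1.91 in the distal glans and -1.50 in the *Coch*/*Meox2* cluster. It was -2.64 in the *Thbd*/*Ptgis* cluster, -3.06 in osteogenic-like mesenchyme and -2.17 in the *Dsc3*/*Wnt10a* cluster. Proliferative cells gave -1.43 and the *Hand2os1*/*Prss35* cluster -4.01. In the *Kera*/*Nefl* cluster the fitted value was -7.26, which is no bound because both DTA+ libraries held 0 UMIs. All of these share the 4 corpus cavernosum sums, so they are not independent of each other.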

How the results depend on the processing

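The count of the 8 members called over all cells, 0 in the test as reported, was 3 by the likelihood ratio test, DESeq2, without a filter on low counts and with the replicate block, and 2 with thinned cells or without the highest doublet scores. The share of all genes called over all cells rose beside this, from 0.488% to 4.12% by the likelihood ratio test, 3.47% by DESeq2, 2.8% without the filter, 2.1% with the block, 0.782% with thinned cells and 0.582% without the highest doublet scores. Over all mesenchyme the 2 calls became 4 by the likelihood ratio test, 5 without the filter and 1 without the upper UMI limit, where 1.3% of all genes became 6.16% by the likelihood ratio test, 5.94% without the filter and 1.04% without the upper UMI limit. The 12 called pairs of member and population became 6 with thinned cells and 12 with the replicate block. DESeq2 called 5 of them, left 5 with no adjusted p and gave the other 2 as not called, with the same sign in all 12. In the named populations the 4 called pairs became 2 with DESeq2, 7 without the filter and 7 without the upper UMI limit. The share of all gene and population pairs called under these settings is not given here, so the pair counts do not show how steady the members were. The 2 other steroid enzyme genes called over all mesenchyme became 4 by the likelihood ratio test, 4 without the filter and 1 to 2 when each library was left out. Same-numbered libraries correlated at -0.362 in their deviations over 12417 genes and the labels give no shared litter, so the numbers do not pair the libraries. With the crossed replicate block, added after the data were seen, 4 members were called over all cells and 4 over all mesenchyme. The share of all genes called with that block is not given here, so no conclusion is drawn from these counts. Fold changes near 0 turned sign: *Srd5a1* to 0.069 without the upper UMI limit and 0.076 with every deposited barcode over all cells, and to 0.051 with thinned cells over mesenchyme. *Srd5a3* turned to 0.077 with thinned cells over all cells, and to 0.0038 without TMM and 0.17 with thinned cells over mesenchyme. When each library was left out it ranged from -0.30 to 0.088 over all cells and from -0.26 to 0.14 over mesenchyme, positive without DTA- replicate 1. *Srd5a2* in the corpus cavernosum turned to 0.10 without the upper UMI limit and ranged from -0.49 to 0.37 when each library was left out, and the distal glans minus periurethra difference ranged from -0.14 to 0.55 when each library was left out, with -0.0051 without DTA- replicate 1. The corpus cavernosum minus periurethra difference stayed between 1.93 and 2.32. Control levels moved for *Srd5a1* in epithelium, from 34.3 CPM to 39.6 with thinned cells and 27.7 without the upper limit, and for *Hsd11b1* in the *Cma1*/*S100a9* cluster, from 17.7 CPM to 0 without the upper limit, where cells were clustered again, and to 9.18 to 26.2 when each library was left out. The share of cells with a *Srd5a2* UMI fell with thinning from 26.7 to 8.02% in the control periurethra and from 18.2 to 4.72% in the corpus cavernosum, by construction. Further calls lost were *Srd5a2* in osteogenic-like mesenchyme without the highest doublet scores (edgeR adjusted p = 0.0603) or at resolution 1.2 (0.217), *Cyp1b1* over mesenchyme without the upper UMI limit (0.0623), and *Srd5a2* and *Cyp1b1* in the joined prepuce by DESeq2 (0.0638 and 0.0686). The cause was not tested in these cases. Differences of response with the general or subdermal prepuce were not run, since each had under 20 cells in a library. The members under about 10 CPM rest on few UMIs, so changes in them were often not detectable at this depth.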
